A study of Saccharomyces cerevisiae with 5 samples.

Results

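The 26S proteasome genes are described here in budding yeast supplied with 5 amounts of phosphate. The set holds 34 genes: every gene whose symbol is RPN, RPT, PRE or PUP followed by a number, plus SCL1 and SEM1, with RPN4 set apart because it encodes the transcription factor of the set and not a subunit. All 34, and RPN4, had probe sets that name a single gene and were among the 4824 genes measured. Every culture was Saccharomyces cerevisiae of strain W303 with the genotype PHO4-MYC::TRP1, a tagged PHO4 allele marked with TRP1. After 3 h without phosphate in PNB medium the cultures were given 0, 0.01, 0.1, 1 or 10 mM phosphate for 80 min, and 1 Affymetrix array was made for each dose. There are no replicates, no culture of an untagged strain and no culture that was never starved, so a difference between any pair of doses has no replicate error.

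The proteasome is the large protease that degrades ubiquitin-tagged proteins in the cytosol and nucleus. Its core particle is a barrel of outer alpha and inner beta rings, and the proteolytic sites lie on beta subunits. The regulatory particle on its ends consists of a base, with a ring of ATPases that unfold substrates, and a lid that removes ubiquitin. In yeast Rpn4 activates the subunit genes together through a shared promoter element, and the proteasome itself degrades Rpn4.

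Proteasome genes were mildly lower at the higher phosphate doses and moved within a narrow range. In the order of 0, 0.01, 0.1, 1 and 10 mM, kept for all signals given below, their median signal was 189, 175, 135, 100.4 and 117. Per gene, the median change from 0 to 10 mM was -0.67 on the log2 scale, or 1.59-fold lower, against -0.26 for all genes. At 10 mM 33 of the 34 were below their level at 0 mM, which is 97.1% of them against 62.2% of all genes. Of the 34, 5, or 14.7%, were at least 2-fold lower at 10 mM, against 21.2% of all genes, and 0 were at least 2-fold higher, against 7.52%. At 1 mM, set against 0 mM, 15 were at least 2-fold lower, or 44.1%, against 23.7%. On arrays scaled to a common median, 0 were that much lower at 10 mM, against 11.7%. The SD of the change across the 34 genes was 0.32, and across all genes it was 1.09. These SDs are not matched for signal: at 0 mM the median signal was 189 for the 34 genes and 62.4 for all genes.

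**Figure D1:**
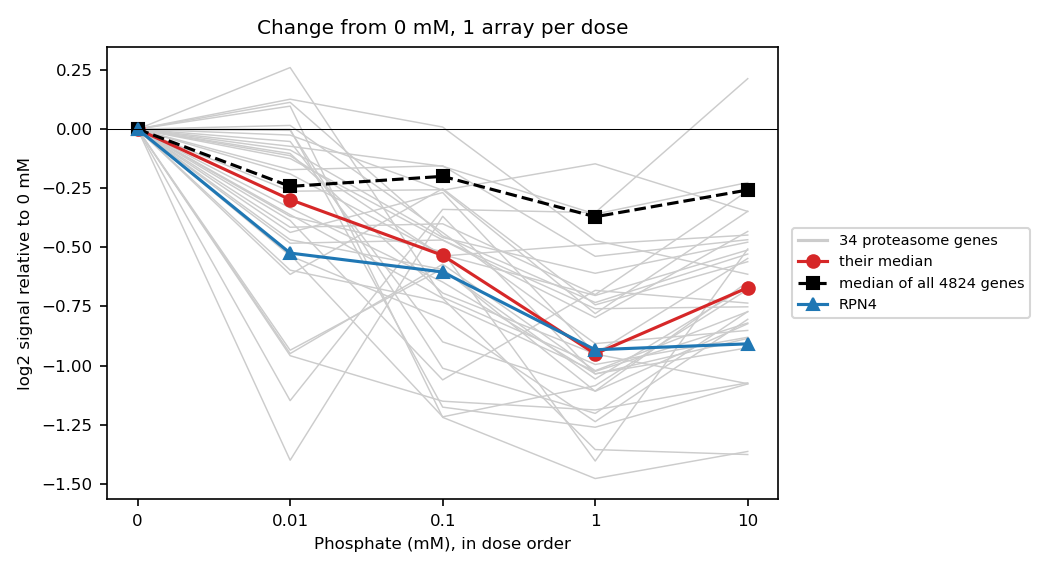
Log2 signal relative to 0 mM (vertical axis) against phosphate in dose order (horizontal axis, mM). Grey lines are the 34 proteasome genes, the red line is their median, the black dashed line is the median of all 4824 genes and the blue line is RPN4. The red median reaches -0.95 at 1 mM, while the black line reaches -0.37 there.

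The whole array also shifted between doses, so the proteasome genes are best read against the median of all genes. Relative to that median, the proteasome genes on the 4 arrays given phosphate stood at -0.06, -0.33, -0.58 and -0.41 (log2, compared with 0 mM). With the arrays scaled to a common median, the same genes were lower at 10 mM than at 0 mM in 27 of 34 cases, with a median of -0.20 beside a median of 0.18 for all genes. Quantile normalization gave 31 of 34 and a median of -0.42 beside 0.09. The poly-A spike-in controls were 10.4-fold lower at 10 mM than at 0 mM. Scaling the arrays to these controls, a shift of all genes alike, turned the direction. In the dose-order test described below 33 of the 34 then rose, or 97.1%, against 89.4% of all genes. For ACT1 the signal near the 3' end exceeded that near the 5' end by 2.37, 3.00, 1.11, 2.19 and 2.02-fold, and for TBP by 2.63, 4.52, 2.01, 2.35 and 1.51-fold, a measure of how intact the RNA was. Beyond that scaling, the part of the spike-in and RNA quality differences in the proteasome values was not tested. A culture with less RNA of a gene per cell and a culture with fewer cells making it cannot be told apart here. As a check of the dose labels, the acid phosphatase gene PHO5, which phosphate represses, had signals of 1418, 1222, 28.0, 22.0 and 24.4.

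2 tests were made across all genes with limma and Benjamini-Hochberg adjustment, both using the scatter of the 5 arrays as their error. The first fitted a straight line in dose order, and a gene past it "fell" or "rose". The second, called the step comparison, set 0 and 0.01 mM against 0.1, 1 and 10 mM, a division chosen with results of these data known. On dose order 1 of the 34 genes fell, against 8.13% of all genes, and 0 rose, against 1.16%. At an unadjusted p under 0.05 the line was negative for 9, or 26.5%, against 23.7% of all genes, and positive for 0, against 8.35%. In the step comparison 10 of the 34 genes, or 29.4%, were lower at the higher doses, against 22.0% of all genes, and 0 were higher, against 11.4%. At an unadjusted p under 0.05, 16 were lower, or 47.1%, against 28.5%, and 0 higher, against 16%. With arrays at a common median the step comparison had 5 of the 34 lower, or 14.7%, against 16.9% of all genes, and over all genes 812 were lower and 1090 higher in place of 1062 and 549.

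The 10 genes lower in the step comparison came from every part of the particle: PRE8 and PRE9 of the alpha ring, PUP3 of the beta ring, RPT2, RPT4 and RPN10 of the base, RPN5, RPN6 and SEM1 of the lid, and the assembly chaperone gene RPN14. RPT4, RPN10, RPN6, SEM1 and RPN14 also passed with arrays at a common median. The count was 3 without the array of 0 mM (8.82%, against 11.5% of all genes) and 5 without that of 0.01 mM (14.7%, against 18.9%). It was 7 without the array of 0.1 mM (20.6%, against 17.0%), 2 without that of 1 mM (5.88%, against 11.5%) and 5 without that of 10 mM (14.7%, against 14.7%). Among these fits the share of proteasome genes called was above that of all genes with every array as deposited, or without that of 0.1 mM. It was at or below that of all genes without any other array or with arrays at a common median. After quantile normalization the share was again above, with 8 of the 34 lower, or 23.5%, against 18.8% of all genes. RPT4 and RPN14 stayed past the threshold with each of the 5 arrays left out. The step difference was below 0 for 33 of the 34 genes, against 58.9% of all genes. With arrays at a common median it was below 0 for 27 of them. For 23 of the 34 genes, 67.6%, both low-dose signals lay above all 3 higher-dose signals, against 37.3% of all genes, and for 0 they lay below, against 21.9%. With arrays at a common median this held for 19 of the 34, 55.9%, against 26.7%.

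**Figure D2:**
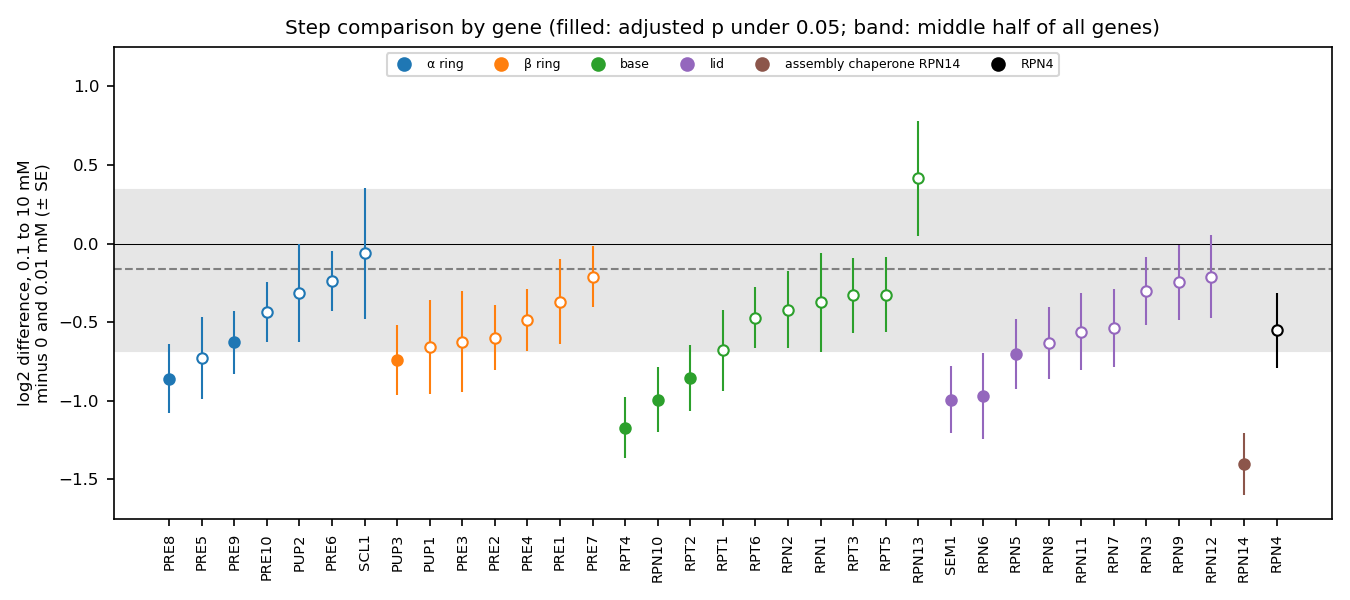
Log2 difference of the mean of 0.1, 1 and 10 mM minus the mean of 0 and 0.01 mM for each gene, with its standard error from limma over 5 arrays. Filled points had an adjusted p under 0.05, the grey band spans the quartiles of all genes (-0.68 to 0.34) and the dashed line is their median, -0.16. RPN14 and RPT4 lie lowest, and with signals as deposited RPN13 is the proteasome gene above 0.

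In the order of doses, 28 of the 34 genes had their highest signal at 0 mM (82.4%, against 43.6% of all genes) and 25 had their lowest at 1 mM (73.5%, against 28.9%). The array of 1 mM had the lowest median of the 5 arrays, 17.0, and that of 0 mM the highest, 25.5. With arrays at a common median, 10 of the 34 were lowest at 1 mM (29.4%, against 12.2%) and 11 were highest at 0 mM (32.4%, against 19.9%). At 10 mM 29 of the 34 stood above 1 mM, with a median difference of 0.18 beside 0.10 for all genes.

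Taken dose by dose, 29 of the 34 genes were lower at 0.01 than at 0 mM, against 69.5% of all genes, and 24 were lower at 0.1 than at 0.01 mM, against 48.2%. From 0.1 to 1 mM 30 were lower, against 71.3%, and from 1 to 10 mM 5 were lower, against 31.4%. These counts use signals as deposited, where the array medians were 25.5, 20.6, 19.7, 17.0 and 18.4. With arrays at a common median many of the 29 genes were instead higher at 0.01 than at 0 mM. They were PRE8, PRE6, PRE10, PRE2, PRE7, PRE4, RPT2, RPT3, RPT4, RPT6, RPN3, RPN5 and SEM1. RPT4 and SEM1, for example, had 183 against 144 and 192 against 152, while PUP1 was still lower (232 against 355). Differences of at least 2-fold between neighbouring doses were rare. At 0.01 mM SCL1 and RPN13 were that much lower than at 0 mM (2 of 34, against 6.84%), and 0 were higher (against 2.16%). At 0.1 mM RPT4, SEM1 and RPN14 were that much lower than at 0.01 mM (3 of 34, against 12.3%), and SCL1 was higher (1 of 34, against 12.8%). Between 0.1 and 1 mM 0 of the 34 differed that much in either direction, against 1.24% lower and 1.26% higher, and between 1 and 10 mM again 0, against 0.808% and 0.498%. The largest difference between neighbours lay between 0.01 and 0.1 mM for 14 genes (50.6% of all genes), between 0 and 0.01 mM for 10 (26.3%), between 0.1 and 1 mM for 8 (14.6%) and between 1 and 10 mM for 2 (8.50%).

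The 7 alpha ring genes shape the entry pore of the core. As deposited they were all lower at 10 mM than at 0 mM, with a median difference of -0.65. With arrays at a common median PRE6 and PRE10 were not lower at 10 mM (log2 differences of 0.12 and 0.02). PRE8 had signals of 307, 297, 165, 143 and 196 in dose order, and its 2 low-dose values lay above the rest (step difference -0.86 ± 0.22 (SE, 5 arrays), adjusted p = 0.0220, limma). PRE9, the core subunit gene that yeast can live without, had 174, 188, 127, 105 and 121 (-0.63 ± 0.20, adjusted p = 0.0485, limma). In both genes the low and the higher doses were apart.

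SCL1 moved differently. Its signals were 246, 93.0, 190.2, 120 and 133, so the value at 0.01 mM was the lowest of the 5 and the groups of doses overlapped. PUP2 had 172, 89.2, 116, 84.8 and 101, with a similar dip at 0.01 mM. PRE6 differed least, at 396, 389, 331, 357 and 311, a 1.27-fold difference between the ends. PRE10 had 243, 225, 167, 173 and 178. PRE5, the remaining gene of the ring, was 1.60-fold lower at 10 mM and its step difference of -0.73 did not pass.

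**Figure D3:**
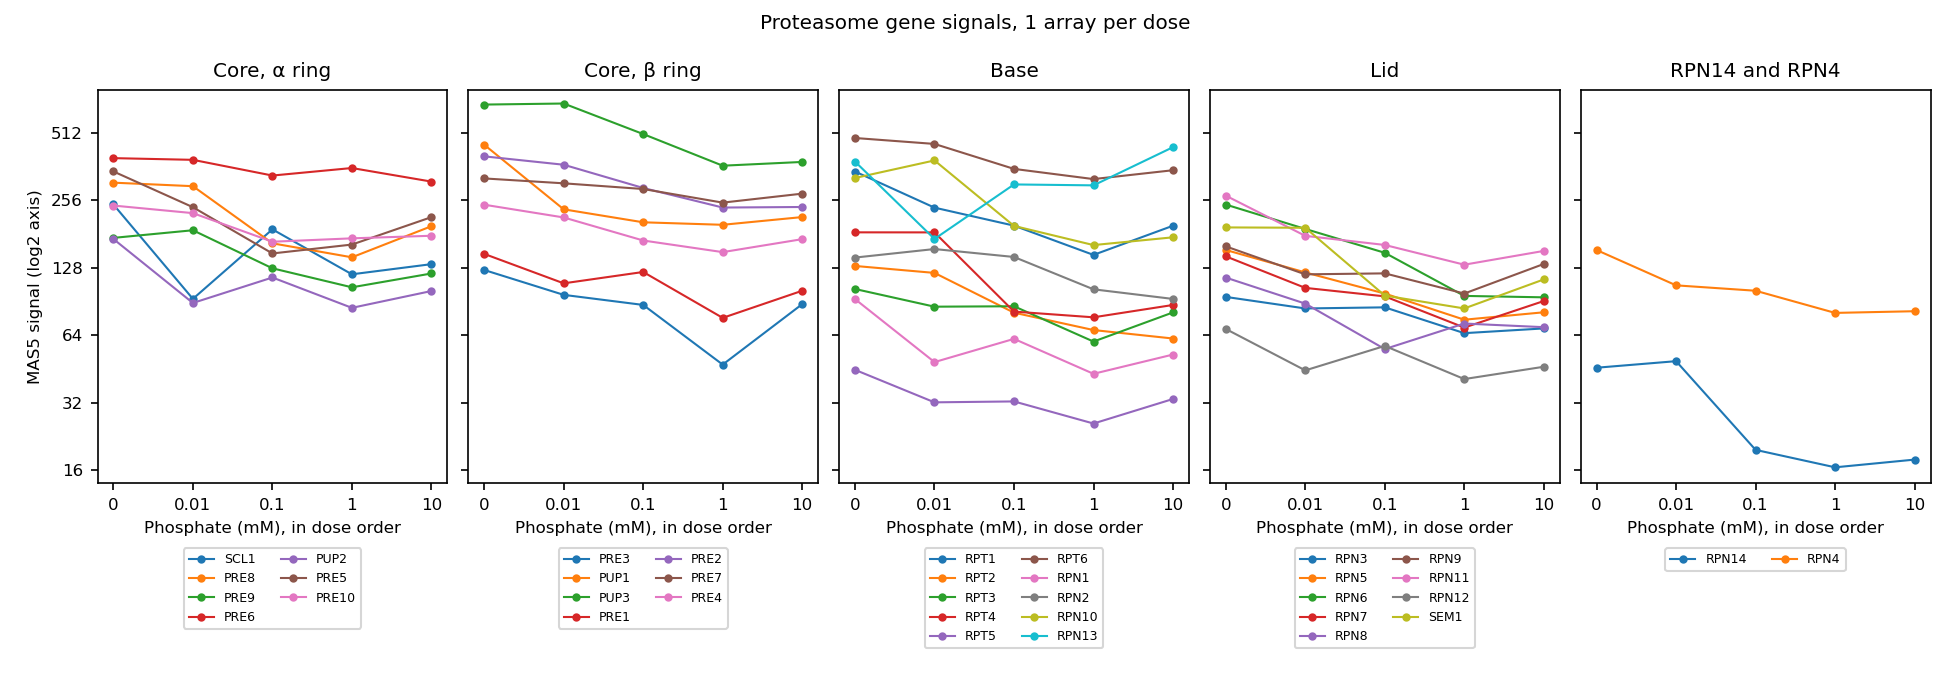
MAS5 signal on a log2 axis against phosphate in dose order (mM) for the 34 proteasome genes and RPN4, by part of the particle; each point is 1 array. Most lines slope down from left to right, SCL1 and RPN13 dip at 0.01 mM, and RPN13 is highest at 10 mM.

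The 7 beta ring genes, which include the proteolytic subunits, had a median difference of -0.55 between 10 and 0 mM. As deposited all were lower at 10 mM, while with arrays at a common median PRE7 was higher there (log2 difference of 0.24). PRE2, for the subunit with chymotrypsin-like activity, had signals of 403, 370, 291, 238 and 239. The trypsin-like subunit gene PUP1 had 454, 234, 205, 199 and 216, so most of its 2.10-fold difference was already present at 0.01 mM. PRE3, for the caspase-like subunit, had 125, 97.0, 87.4, 47.3 and 88.1 as the mean of 3 probe sets. With probe sets averaged, none of these catalytic subunit genes passed the step comparison (adjusted p = 0.0595, 0.128 and 0.174 in limma). In each the low-dose signals lay above the higher-dose ones, and the brightest probe set of PRE3 alone did pass (adjusted p = 0.0167, limma). PUP3, a structural beta subunit gene, did pass, with signals of 687, 694, 507, 366 and 380 (step difference -0.74 ± 0.22, adjusted p = 0.0399, limma). PRE7 had 321, 305, 288, 250.4 and 275, the smallest difference of the ring, and PRE1 and PRE4 were 1.46 and 1.43-fold lower at 10 mM.

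Among the 10 base genes the median difference was -0.71, and the values ranged from -1.08 for RPT4 to 0.21 for RPN13. RPT4, an ATPase gene, had signals of 184, 184, 81.6, 77.0 and 87.4. The change lay between 0.01 and 0.1 mM and the doses on either side were close to each other (step difference -1.17 ± 0.19, adjusted p = 0.00455, limma). The ATPase gene RPT2 had 131, 122, 80.7, 67.5 and 61.9 and was lowest at 10 mM (-0.86 ± 0.21, adjusted p = 0.0200, limma). RPN10, which encodes a ubiquitin receptor, had 323, 386, 197, 162 and 175, with its highest signal at 0.01 mM (-0.99 ± 0.21, adjusted p = 0.0116, limma).

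With signals as deposited RPN13, for another ubiquitin receptor, was the exception to the common direction. Its signals were 382, 172, 302, 299 and 443, so it was lowest at 0.01 mM and highest at 10 mM, 1.16-fold above 0 mM. It passed neither test. With arrays at a common median 7 proteasome genes were higher at 10 than at 0 mM. From the base these were RPN13 and RPT3 (log2 differences of 0.68 and 0.12). After quantile normalization 3 proteasome genes were higher. The ATPase gene RPT3 had 103, 85.9, 86.2, 59.97 and 80.9, and its groups of doses overlapped. RPT1, RPT6 and the scaffold genes RPN1 and RPN2 were 1.39 to 1.77-fold lower at 10 mM without passing a test. Of the 6 ATPase genes, RPT2 and RPT4 passed the step comparison and the other 4 had step differences between -0.68 and -0.32. Differences between the ATPase genes were not tested.

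Genes of the lid had a median difference of -0.74, and as deposited all 9 were lower at 10 mM. With arrays at a common median RPN9 and RPN3 were not lower there (log2 differences of 0.21 and 0.0015). RPN6, for a lid subunit that braces the lid against the core, had signals of 245, 191, 149, 95.9 and 94.5, falling at each dose. It was the gene that fell on dose order (slope -0.37 ± 0.09 log2 per dose step, SE, 5 arrays; adjusted p = 0.0436, limma) and was 2.60-fold lower at 10 mM, the largest difference of the set. That call was lost with arrays at a common median (adjusted p = 0.0777, limma), where 0 of all genes passed. It was also lost without the array of 0, 0.01, 1 or 10 mM (adjusted p = 0.391, 0.0899, 0.196 and 0.0685, limma). RPN5 had 154, 122, 98.3, 75.1 and 81.0 (step difference -0.70 ± 0.23, adjusted p = 0.0478, limma). SEM1, for the smallest lid subunit, had 194, 193, 96.3, 84.3 and 114, with both low doses nearly equal and about 2-fold above 0.1 mM (-0.99 ± 0.21, adjusted p = 0.0124, limma). With arrays at a common median its low doses were 152 and 192.

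The smallest differences of the lid were those of RPN9, at 160, 120, 121, 98.3 and 133, and of RPN3, at 94.9, 84.3, 85.3, 65.4 and 68.7. In both the groups of doses overlapped. RPN11, which encodes the deubiquitinating enzyme of the lid, and its partner RPN8 were 1.77 and 1.67-fold lower at 10 mM. RPN7 and RPN12 were 1.58 and 1.48-fold lower, and none of these genes passed a test.

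RPN14 has a subunit-like name but encodes a chaperone that helps assemble the base. It had signals of 45.8, 49.0, 19.7, 16.5 and 17.8, and the largest step difference of the 34 genes, -1.40 ± 0.20 (SE, 5 arrays; adjusted p = 0.00266, limma). Both low doses lay more than 2-fold above every higher dose. Without RPN14 the median difference between 10 and 0 mM over the other 33 genes was -0.66.

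RPN4 had signals of 154, 107, 101, 80.5 and 81.9. Relative to 0 mM it stood at -0.52, -0.60, -0.93 and -0.91 from 0.01 to 10 mM, beside a median of -0.30, -0.53, -0.95 and -0.67 for the 34 genes. It was lowest at 1 and 10 mM, and its largest difference between neighbouring doses lay between 0 and 0.01 mM. It passed neither test (adjusted p = 0.126 for the line and 0.119 for the step, limma). With arrays at a common median RPN4 had 120, 106, 103, 94.5 and 88.6, or -0.44 at 10 mM relative to 0 mM. Its step difference was then -0.25 ± 0.17, and it again passed neither test (adjusted p = 0.342 for the line and 0.281 for the step, limma). Of 4 genes for factors reported to act on the RPN4 promoter, 3 were measured. YAP1, an oxidative stress factor gene, had 60.6, 40.7, 25.9, 24.2 and 25.6, and HSF1, for the heat shock factor, had 56.4, 31.2, 17.2, 13.3 and 21.2. Both were lower at the higher doses (step differences -0.98 ± 0.23 and -1.31 ± 0.32, adjusted p = 0.0178 and 0.0190, limma). PDR1, the drug resistance factor gene, had 60.5, 28.9, 46.9, 48.4 and 45.3 and did not pass.

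A dip at 0.01 mM, followed by a higher signal at 0.1 mM, a lower one at 1 mM and a higher one at 10 mM, was shared by 10 of the 34 genes: SCL1, PUP2, PRE1, RPT3, RPT5, RPN1, RPN13, RPN3, RPN9 and RPN12. That is 29.4% of them, against 23.1% of all genes. With arrays at a common median RPT3 and RPN3 did not dip at 0.01 mM (80.5 and 85.2, and 74.2 and 83.7, at 0 and 0.01 mM). RPN13 was then higher at 1 than at 0.1 mM (351 against 307), and the other genes listed kept the pattern. No gene among these 10 passed either test as averaged here, but the pattern they were picked for itself adds to the scatter that both tests use as error. RPT5 has the dip only as an average of several probe sets, and its brightest set, described next, has no rise at 0.1 mM and passed the step comparison (adjusted p = 0.0171, limma). The excess of 3' over 5' signal was largest on the array of 0.01 mM for both ACT1 and TBP, and smallest on that of 0.1 mM for ACT1. The part of RNA quality in this pattern was not tested.

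Probe sets of the same gene disagreed for PRE3 and RPT5, the members with several. The brightest set of PRE3 had 419.9, 333, 194, 131 and 201, a 2.09-fold difference between the ends, while the dimmer 2 sets were 1.20 and 1.14-fold lower at 10 mM. For RPT5, an ATPase gene, the brightest set had 164, 116, 65.0, 69.4 and 76.6, a 2.14-fold difference. A dimmer set had 41.5, 24.9, 40.7, 21.7 and 41.1, equal at both ends within 1.01-fold, and another lay near the background level of 11.4. The average used above, 1.35-fold lower at 10 mM, therefore mixes sets with unlike profiles. With the brightest set in place of the average, PRE3 and RPT5 passed the step comparison as well (differences -1.12 ± 0.26 and -0.97 ± 0.23, adjusted p = 0.0167 and 0.0171, limma), and 12 of the 34 genes were lower, or 35.3%, against 22.2% of all genes. Then 7 of the 34 were at least 2-fold lower at 10 mM, or 20.6%, against 21.5%.

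**Figure D4:**
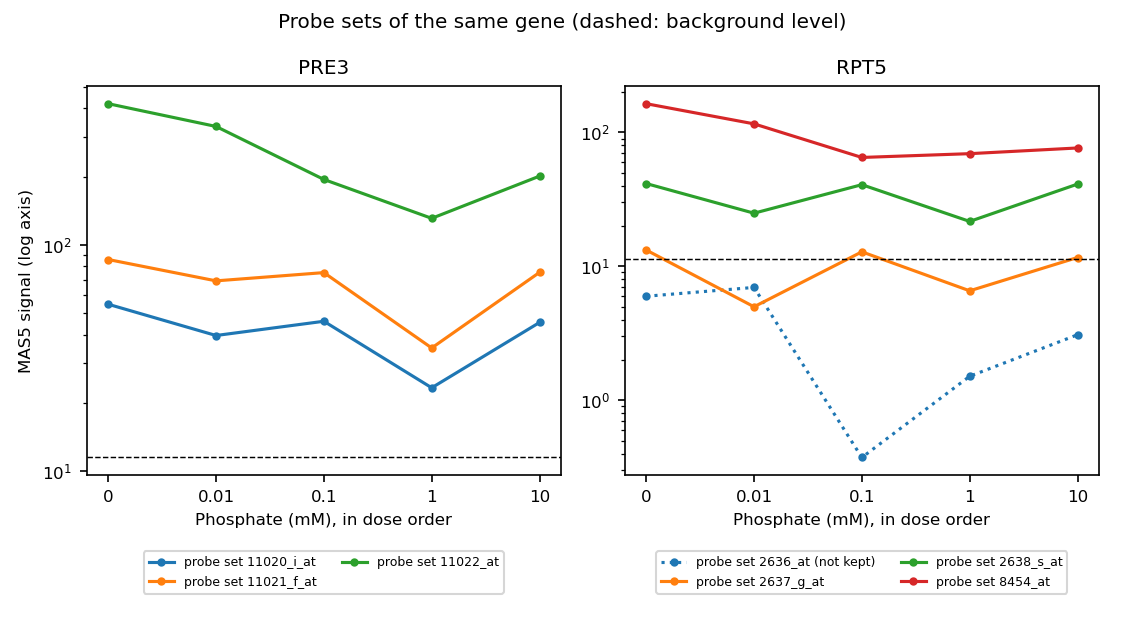
MAS5 signal on a log axis against phosphate in dose order (mM) for each probe set of PRE3 and RPT5; each point is 1 array, the dashed line is the background level of 11.4 and the dotted line is a probe set below it on every array. The brightest set of each gene is lower at 0.1 than at 0.01 mM, while the dimmer kept sets are higher there.

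Of 15 genes for factors that assemble or bind the particle, 7 were lower in the step comparison, or 46.7%, against 22.0% of all genes, and 1 was higher, or 6.67%, against 11.4%. On dose order 1 fell, or 6.67%, against 8.13%. With arrays at a common median 4 were lower and 1 higher, where 16.9% of all genes were lower and 22.7% higher. TMA17, for a chaperone of base assembly, had signals of 407, 332, 90.8, 78.1 and 77.3, and its step difference was -2.17 ± 0.21 (adjusted p = 0.000607, limma). ADD66, for a chaperone of the alpha ring, had 105, 74.3, 23.7, 31.7 and 31.9 and was 3.29-fold lower at 10 mM. NAS6, which acts with RPN14 in base assembly, had 236, 227, 122, 103 and 108. All 3 also passed with arrays at a common median. CIC1, known also as a factor of ribosome assembly, was the gene that was higher, at 267, 170.4, 420.04, 346 and 440.2. The median step difference of the list was -0.77, beside -0.55 for the proteasome genes.

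Cdc48, the ATPase that extracts ubiquitin-tagged proteins, and the shuttle factors that bring them to the proteasome form a list of 8 genes, of which 7 were lower in the step comparison, or 87.5%, against 22.0% of all genes, and 0 higher. The same count of 7 held with arrays at a common median and after quantile normalization, against 16.9% and 18.8% of all genes. CDC48 itself had signals of 410, 293, 186, 181 and 206, and NPL4, for a Cdc48 cofactor, had 85.1, 55.7, 17.6, 13.4 and 15.04, a 5.66-fold difference between the ends. The cofactor gene UFD1 was 2.92-fold lower at 10 mM. RAD23, a shuttle factor gene named after its values were seen, was the member that did not pass, at 157, 105, 155, 128 and 201. The list had a median step difference of -1.26.

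Of 25 measured genes for ubiquitin and its E1, E2 and E3 enzymes, 7 were lower in the step comparison, or 28.0%, against 22.0% of all genes, and 0 were higher, against 11.4%. Their median was -0.32. The counts were 6 and 2 of 24 with arrays at a common median, against 16.9% and 22.7% of all genes. UBI4, the stress-induced polyubiquitin gene, had 611, 451, 159, 101 and 154. The conjugating enzyme gene UBC8 had 161, 98.9, 20.5, 18.5 and 17.4, a 9.24-fold difference between the ends, and UBC5 was 4.43-fold lower at 10 mM. HUL5, for a ubiquitin ligase bound to the proteasome, was 3.03-fold lower. UBI4, UBC8, UBC5 and HUL5 also fell on dose order. Among 16 measured deubiquitinating enzyme genes and their regulators 3 were lower, or 18.8%, and 1 was higher, or 6.25%, both below the shares of all genes, with a median of -0.04. OTU1, at least 5.06-fold lower at 10 mM since it was below background from 0.1 mM on, UBP15 and DOA1 were lower, and RFU1, for an inhibitor of a deubiquitinating enzyme, had 25.3, 24.7, 58.7, 50.5 and 61.8. With arrays at a common median 2 of the 16 were lower and 4 higher, against 16.9% and 22.7% of all genes. The median then turned to 0.24.

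**Figure D5:**
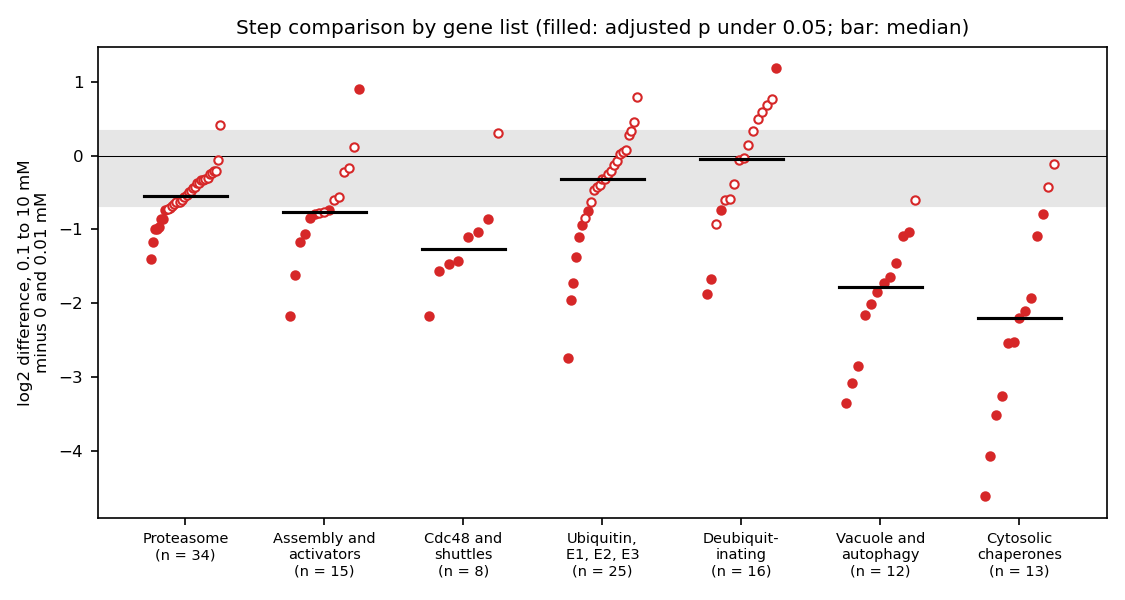
Log2 difference of 0.1, 1 and 10 mM minus 0 and 0.01 mM for each gene (points) of the proteasome and of 6 other lists; bars are medians, filled points had an adjusted p under 0.05 in limma, and the grey band spans the quartiles of all genes. The proteasome genes lie closer together than the genes of the other lists shown, with a median of -0.55 against -1.78 for the vacuole and -2.20 for the chaperones.

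The proteasome genes were set beside other genes of protein turnover and folding. Of 12 measured genes for vacuolar proteases and autophagy 11 were lower in the step comparison, or 91.7%, with a median of -1.78. Of 13 cytosolic chaperone genes (Hsp70, Hsp90, the disaggregase HSP104 and co-chaperones) 11 were lower, or 84.6%, with a median of -2.20. The share of all genes was 22.0%. The counts were 11 and 10 with arrays at a common median, where 16.9% of all genes were lower. The SD of the step difference was 0.34 over the proteasome genes, 0.85 over the vacuolar list and 1.39 over the chaperones. These lists were not tested against each other. The vacuolar protease gene PEP4 had signals of 920.4, 837, 311, 284 and 247, and the chaperone gene SSA4 had 442, 269, 23.0, 22.8 and 16.4. Their differences between 0 and 10 mM were 3.72 and 27.0-fold, against 2.60-fold for RPN6, the largest of the proteasome genes.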

How the data were processed

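Each of the 5 cultures gave 1 Affymetrix array, hybridised with biotin-labelled cRNA made from 6 ug of cDNA per array, per the labels. The deposited intensity values are on a linear scale, 1 per probe set. The submitters' processing notes name MAS5. Its scaling target was not given in the sources used here. Of 9335 probe sets 6504 name 1 gene in the platform's annotation, and all of these matched RefSeq's gene table by identifier. Sequences and coordinates were not analysed here.

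Signals below 11.4, the 40th percentile of all values, were set to that level. Probe sets at or above it on at least 2 arrays were kept (5083) and averaged per gene on the log2 scale (4824 genes). Both fits used limma 3.58.1 (R 4.3.3; 7.64 degrees of freedom after moderation for the line), with p-values adjusted by Benjamini and Hochberg's method across every measured gene and a threshold of 0.05. The median residual SD after moderation was 0.33 for the line and 0.27 for the step. The scripts were first tested on simulated data. Whether the 5 cultures ran side by side is not stated, so the p-values measure only the scatter among these arrays, which may be technical, and the number of arrays limits the precision. The alternatives changed the scaling, the floor, the filter, the probe set rule, the division of doses and the arrays used.

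The proteasome genes, the other lists and the division of doses were chosen with earlier results of these data known. Full signals are given for RPN4, the catalytic subunits, genes past a test and those with the most negative and most positive differences in each part of the particle; from each other list at most 4 genes are named.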

Additional observations from a re-analysis of the deposited data

How the results depend on the processing

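The count of proteasome genes lower in the step comparison, 10, was 5 with arrays at 1 median, 0 with 0, 0.01 and 0.1 mM set against 1 and 10 mM (where 0 of all genes passed), and 2 to 7 with 1 array left out. That count was 8 after quantile normalization (23.5%, against 18.8% of all genes) and 8 without a filter (23.5%, against 11.7%). It was 7 with a floor at the 20th percentile (20.6%, against 20.5%) and 11 at the 60th (32.4%, against 22.2%). Adding the background level to each signal, in place of the floor, gave 13 (38.2%, against 23.3%). A filter on mean signal gave 9 (26.5%, against 22.5%) and a variance trend 11 (32.4%, against 22.5%). Chosen after seeing the data, arrays at 1 median with a variance trend gave 5 (14.7%, against 17.4%). Without the array of 0.1, 1 or 10 mM, arrays at 1 median gave 3, 2 and 3 (8.82%, 5.88% and 8.82%, against 13.1%, 10.7% and 11.8%), also chosen then. On dose order the count that fell, 1, was 0 with arrays at 1 median and after quantile normalization. It was also 0 with a floor at the 60th percentile and without a filter. It was 2 with a filter on mean signal (5.88%, against 10.7% of all genes). With 1 array left out it was 0 to 4, the 4 being without that of 0.1 mM (11.8%, against 15%). Leaving out the array of 0 or 0.01 mM leaves a single low-dose array, assumed to vary like the others. Arrays scaled to the poly-A spike-in controls, a shift of all genes alike, gave 0 lower and 27 higher in the step comparison, and 0 that fell and 33 that rose; over all genes 3792 were higher and 4315 rose. Over all genes the line called 392 lower and 56 higher, against 0 and 0 with arrays at 1 median, 2 and 2 after quantile normalization and 1 and 0 without a filter, and the step comparison 1062 lower, against 660 without a filter. The cause of these changes was not tested. The medians relative to all genes stayed negative under the settings for which they were computed (not the spike-in scaling, the variance trend or the other division of doses), from -0.58 to -0.28 for the difference to 10 mM (or to 1 mM) and from -0.50 to -0.31 for the step. No paired analysis was possible because each dose has 1 array.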
